A study of Bos taurus with 16 samples.

Results

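The 44 genes described here carry out fatty acid synthesis, elongation and desaturation, activate fatty acids with coenzyme A, build triglyceride, coat or shape lipid droplets, release the stored fatty acids and pass them into mitochondria. They were taken by gene name from a list drawn up by function and not by a threshold on these values, with earlier results of the data known, and all 44 were found in both blastocyst tables (of 38959 and 37429 genes) and 43 in the table of bovine embryonic stem cells (bESCs, 28303 genes), which had no row for DGAT2. The study examined LY2955303 (LY), an inhibitor of the retinoic acid receptor RARγ, in wild-type bovine embryos and bESCs, and 16 libraries were measured by RNA sequencing. The first table held 3 DMSO and 3 LY10 libraries, each a single blastocyst of day 8 after in vitro fertilization, cultured from the 2-cell stage with 10 μM LY or with its DMSO vehicle in a medium to which LIF, FGF2 and IGF1 had been added. The second table held 2 single blastocysts each of cell2_LY (LY from the 2-cell stage), cell16_LY (LY from the 16-cell stage) and LY_DMSO (vehicle), and the labels give no concentration for these. The third held 2 libraries each of bESC_LY and bESC_tifx, cultures kept on mouse embryonic fibroblast feeders in TiFX medium, which contains inhibitors of MEK, GSK3, DOT1L, FGF receptor and Wnt signaling together with forskolin and LIF, with 3 days of LY at 10 μM in bESC_LY. Each blastocyst library is 1 embryo from slaughterhouse oocytes, and the parents of single embryos are not given. The methods call the replicates biological, without saying what separates the bESC libraries.

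Fatty acids are made in the cytosol from citrate. ATP citrate lyase (ACLY) splits citrate into acetyl-CoA, acetyl-CoA carboxylase (ACACA, and ACACB at the mitochondrial surface) makes malonyl-CoA, and fatty acid synthase (FASN) builds palmitate. In the endoplasmic reticulum an ELOVL enzyme, HSD17B12, one of the HACD dehydratases and TECR lengthen the chain in a cycle, while SCD and the FADS enzymes add double bonds. Long chains are activated by ACSL enzymes, joined to glycerol by GPAM, AGPAT, lipin and DGAT enzymes and stored in droplets coated by perilipins. PNPLA2 with its activator ABHD5, then LIPE and MGLL, free them again, and CPT1A and CPT2 carry them into mitochondria for oxidation. Bovine oocytes and embryos are known for a cytoplasm rich in lipid droplets.

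Levels are given as FPKM, the fragments on a gene scaled to its length and to the library size, as deposited. Differences are log2 fold changes ± SE from limma on log2(normalized count + 1), and a gene is called when its unadjusted p is under 0.05 and its log2 fold change is beyond 1 in either direction, the threshold of the study. Adjusted p values are Benjamini-Hochberg values over all tested genes of a comparison. Depth ranged from 7905768 to 15137567 reads on genes in the first table, from 11336091 to 17343140 in the second and from 29055323 to 31230432 in the bESC table. DMSO replicate 3 lay nearer to the LY10 blastocysts than the other DMSO replicates did over all genes, so the calls of the first table are given with and without it. The trophectoderm keratins KRT8 and KRT18 were abundant in every blastocyst, and POU5F1 was read in every library. The 5 adipocyte markers summed to 0.21, 6.80 and 0.14 FPKM in DMSO replicates 1, 2 and 3 and to at most 1.36 FPKM in any other group. DMSO replicate 2 held FABP4 at 4.63 and ADIPOQ at 1.19 FPKM. The part of this in its lipid gene levels was not tested. Fibroblast markers summed to 50.2 to 60.6 FPKM in the bESC libraries, which were grown on feeders. Most of this was COL1A1 (45.8 to 54.7 FPKM), while COL1A2 reached at most 3.79 and DCN at most 0.284 FPKM. Each blastocyst was sequenced whole, so fewer cells of a type and less RNA per cell cannot be told apart. All labels give batch 1, so no batch could be compared.

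Across the 6 blastocysts of the first table, the median level was highest for ACSL3 (145 FPKM), which activates long chain fatty acids, followed by ACLY (120.2 FPKM) and HSD17B12 (105 FPKM), the ketoreductase of elongation. Their ranges overlapped, at 95.5 to 159.5, 48.9 to 159 and 39.5 to 132 FPKM, so these neighbours in the order did not differ beyond their spread. In the second table the median was again highest for ACSL3, at 186 FPKM, and FADS3 came next at 113 FPKM. Within synthesis, ACLY stood far above FASN (1.97 to 10.3 FPKM in the first table) and ACACA (0.550 to 1.39 FPKM), and ACACB had 0 to 7 reads per library. Among the 7 ELOVL elongases, ELOVL6 (60.7 to 104 FPKM), which lengthens palmitate, ELOVL1 (29.0 to 66.1 FPKM) and ELOVL5 (19.6 to 29.4 FPKM) were well read, while ELOVL2, ELOVL3, ELOVL4 and ELOVL7 each stayed below 5 FPKM in every blastocyst of both tables. PLIN2, the perilipin that coats droplets in most cells, was the highest droplet protein gene at 38.1 to 95.2 FPKM, above PLIN3 at 17.1 to 39.4 FPKM with only a narrow overlap. The lipolysis genes were low, with PNPLA2 at 0.175 to 0.909, ABHD5 at 0.462 to 1.24, MGLL at 0.0166 to 0.976 and LIPE at 0.01997 to 0.399 FPKM.

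**Figure D1:**
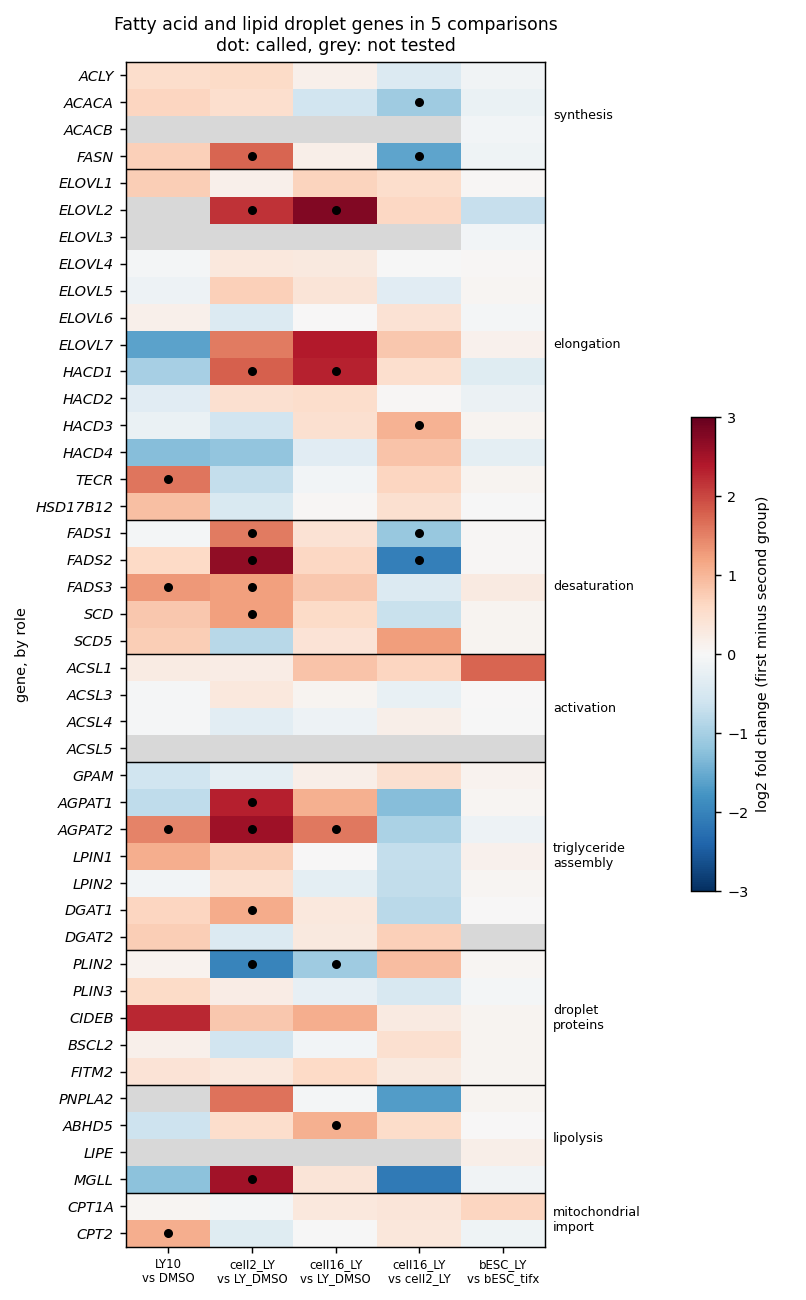
Log2 fold changes of the 44 genes (rows, by role) in the 5 comparisons (columns), first minus second group, on a colour scale cut at -3 and 3; a dot marks a called gene and grey a gene that was not tested or has no row. The column cell2_LY vs LY_DMSO holds 12 dots, 11 of them on genes higher in cell2_LY, and the bESC column holds 0.

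LY10 and DMSO blastocysts were compared to ask what LY from the 2-cell stage changes in the embryo. Of the 44 genes, 38 passed the filter on low values, and 4 were called, all higher in LY10: TECR, FADS3, AGPAT2 and CPT2, which belong to 4 different roles. The other 34 were not called, and ACACB, ELOVL2, ELOVL3, ACSL5, PNPLA2 and LIPE were too low to test. Over all tested genes of this comparison 14.7% were called, 6.2% as higher and 8.51% as lower in LY10, so the share of the lipid genes called, 10.5%, lay below the background. Calls over all genes split by scaling, since 42.2% of them were higher in LY10 as deposited, 49.98% with TMM factors and 54.99% with quantile normalization, and the 4 lipid genes were called under each of these. The median log2 fold change of the 38 was 0.21, beside -0.05 over all tested genes. No lipid gene passed Benjamini-Hochberg adjustment by limma, against 0.014% of all tested genes, although 6 had an unadjusted p under 0.05. With voom weights 0 passed adjustment. With sample weights the 5 genes CPT2, ELOVL1, FADS3, HSD17B12 and TECR did, as did 1551 of all 14249 tested genes. The same 5 passed without DMSO replicate 3, where the share of all genes is not given.

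TECR, the reductase of the last step of elongation, was at 14.1, 21.0 and 27.3 FPKM in DMSO and at 56.02, 81.3 and 49.6 FPKM in LY10. Every LY10 blastocyst lay above every DMSO blastocyst (log2 fold change 1.60 ± 0.32, adjusted p = 0.0783), and TECR was called in each of the 16 alternatives tried. FADS3, a relative of the front-end desaturases, was at 20.5, 30.2 and 53.3 FPKM in DMSO and 117, 78.7 and 53.6 FPKM in LY10, with DMSO replicate 3 just under the lowest LY10 blastocyst (log2 fold change 1.30 ± 0.40, adjusted p = 0.115). CPT2, the inner membrane step of fatty acid import into mitochondria, was at 2.64, 2.86 and 2.64 FPKM in DMSO and 5.85, 6.79 and 4.91 FPKM in LY10, which gave the tightest control group among the called genes (log2 fold change 1.09 ± 0.27, adjusted p = 0.0843). AGPAT2, which adds the second acyl chain to the glycerol backbone, was at 0.713, 1.502 and 2.01 FPKM in DMSO and 6.80, 2.38 and 3.23 FPKM in LY10 and rested on 14 to 76 reads per library (log2 fold change 1.48 ± 0.60, adjusted p = 0.193). The groups did not overlap in AGPAT2, but the call was lost with voom weights and with the replicate number as a block. It was also lost without any of DMSO replicate 1 (1.08), LY10 replicate 1 (1.06) and LY10 replicate 3 (1.59), values on the log2 scale. FADS3 also lost its call without DMSO replicate 1 (0.98), and CPT2 without LY10 replicate 2 (0.98).

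**Figure D2:**
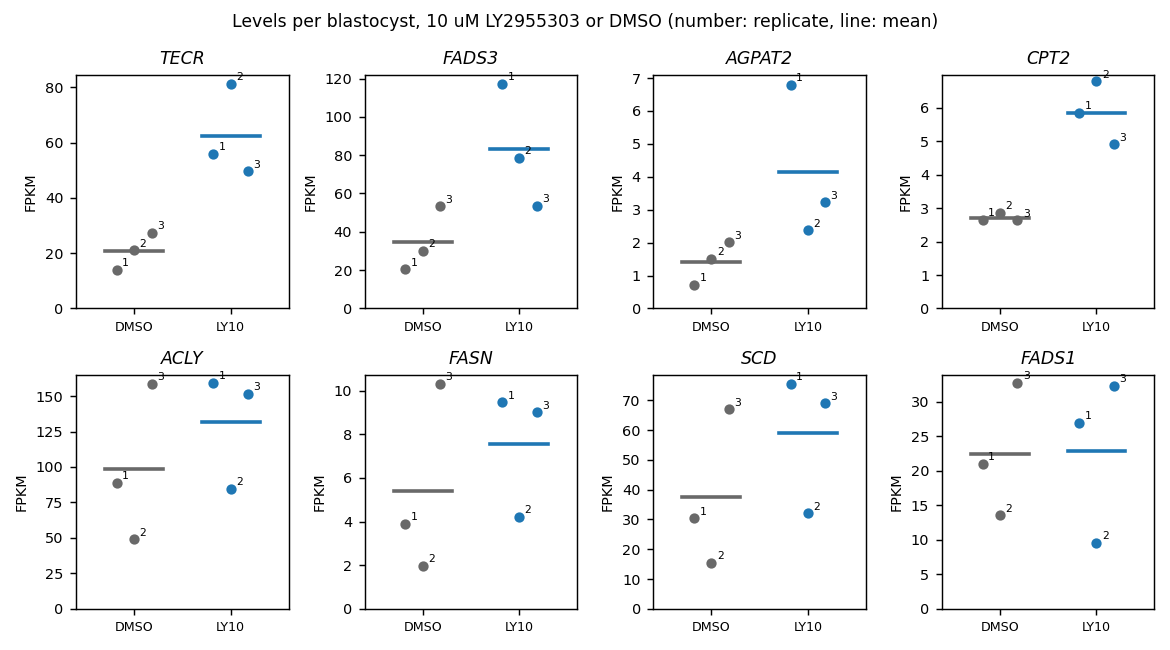
FPKM (y axis, linear from 0) of 8 lipid genes in the 3 DMSO and 3 LY10 blastocysts; points are single blastocysts with their replicate number and lines are group means. The upper row holds the 4 called genes, whose groups do not overlap, as their choice by the call makes likely. In the lower row DMSO replicate 3 sits with LY10 replicates 1 and 3 for ACLY, FASN, SCD and FADS1.

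The synthesis genes and the stearoyl-CoA desaturase SCD, which makes oleate, were not called. FASN was at 3.90, 1.97 and 10.3 FPKM in DMSO and 9.47, 4.22 and 9.01 FPKM in LY10 (log2 fold change 0.73 ± 0.57, adjusted p = 0.469). SCD was at 30.5, 15.4 and 67.1 FPKM in DMSO and 75.6, 32.1 and 69.1 FPKM in LY10 (log2 fold change 0.81 ± 0.53, adjusted p = 0.384). In both genes DMSO replicate 3, LY10 replicate 1 and LY10 replicate 3 were the highest 3 blastocysts, and the same 3 were highest for ACLY (88.9, 48.9 and 159 FPKM in DMSO and 159, 84.7 and 152 in LY10) and for FADS1 (21.1, 13.6 and 32.8 FPKM in DMSO and 27.0, 9.55 and 32.3 FPKM in LY10), the Δ5 desaturase of polyunsaturated fatty acids. Among the 8 trophectoderm markers, KRT8, KRT18, CDX2 and TFAP2A were highest in these 3 blastocysts too, while GATA2, GATA3, PAG2 and PTGS2 were not. KRT8 was at 1950.0, 1582 and 4211 FPKM in DMSO and 6493, 2637 and 3516 FPKM in LY10. GATA3 was at 64.5, 45.6 and 74.6 FPKM in DMSO and 56.7, 33.5 and 40.7 FPKM in LY10. Y-linked genes were read only in DMSO replicate 3 and LY10 replicate 1 of this table. The part of trophectoderm content or embryo sex in this order was not tested. When DMSO replicate 3 was left out, 9 lipid genes were called, all higher in LY10, with FASN (1.36), SCD (1.35), ELOVL1, HSD17B12 and LPIN1 added to the 4. This replicate was set apart for lying nearest to LY10, so leaving it out widens the difference by construction. The share of all genes called in that fit is not given, so the 9 stand without a background. HSD17B12 itself was at 46.1, 39.5 and 122 FPKM in DMSO and 109, 132 and 102 FPKM in LY10 (log2 fold change 0.91 ± 0.40, adjusted p = 0.215), where again only DMSO replicate 3 reached the LY10 range.

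Elongation as a whole did not move one way, since 4 of its 11 tested genes had a positive log2 fold change and the range ran from -1.59 for ELOVL7 to 1.60 for TECR. ELOVL6 was at 61.1, 60.7 and 104 FPKM in DMSO and 84.2, 67.2 and 95.2 FPKM in LY10 (log2 fold change 0.16 ± 0.27, adjusted p = 0.743), and the groups overlapped. PLIN2 was at 54.4, 83.5 and 51.0 FPKM in DMSO and 38.1, 95.2 and 80.8 FPKM in LY10 (log2 fold change 0.11 ± 0.36, adjusted p = 0.873), with the lowest and the highest blastocyst both in LY10. DGAT2, which completes triglyceride, varied from 0.124 to 4.18 FPKM, at 1.73, 4.18 and 0.124 in DMSO and 0.928, 2.76 and 2.01 in LY10 (log2 fold change 0.73 ± 1.09, adjusted p = 0.713). CPT1A, the outer membrane step of import, was at 1.15, 1.09 and 1.88 FPKM in DMSO and 1.90, 1.03 and 1.38 FPKM in LY10 (log2 fold change 0.07 ± 0.40, adjusted p = 0.936), so CPT2 alone of the 2 import genes was called. Among genes with a negative log2 fold change GPAM, the mitochondrial acyltransferase that starts triglyceride assembly, had the smallest p, at 4.95, 5.42 and 4.52 FPKM in DMSO and 4.49, 2.38 and 3.29 FPKM in LY10 (log2 fold change -0.59 ± 0.30, adjusted p = 0.267). These values include DMSO replicate 3. Without it the log2 fold changes were 0.42 for ELOVL6, -0.02 for PLIN2, -0.63 for DGAT2 and 0.31 for CPT1A, none of them called. POU5F1 and DPPA4 of the 6 epiblast markers and PDGFRA of the hypoblast markers were called higher in LY10, and COL1A2 and DCN of the fibroblast markers lower. The fibroblast sum was 19.6 to 90.2 FPKM in DMSO, where LUM alone gave 80.1 FPKM in replicate 3, and 5.50 to 11.5 FPKM in LY10. The part of these markers in the lipid gene results was not tested.

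LY from the 2-cell stage was also compared with vehicle in the second table, where more lipid genes were called. Of the 40 tested genes, 12 were called: FASN, ELOVL2, HACD1, FADS1, FADS2, FADS3, SCD, AGPAT1, AGPAT2, DGAT1 and MGLL were higher in cell2_LY, and PLIN2 was lower. The 30.0% of lipid genes called stands beside 17% of all tested genes, of which 8.71% were higher and 8.34% lower. The median log2 fold change was 0.47 for the lipid genes and 0.00 for all tested genes, and 27 of the 40 were positive. In cell2_LY replicate 1 the deposited FPKM imply a library size 1.23 times its gene reads, and when gene reads served as library size in every library the median of all genes moved to 0.24 and the higher share of all calls from 51.1% to 73.2%, while the same 12 lipid genes were called in the same directions. By limma 0 lipid genes passed adjustment (smallest adjusted p 0.0711), against 0.0138% of all tested genes, 13 had an unadjusted p under 0.05, and voom weights also gave 0. Without LY_DMSO replicate 1 the log2 fold changes were 3.04 for FADS2 and -2.42 for PLIN2. Without cell2_LY replicate 2 they were 3.06 for AGPAT2, 2.92 for FADS2, 2.32 for FASN and -1.76 for PLIN2.

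Desaturation was the role with the largest share of called genes, 4 of 5. FADS1 and FADS2, the Δ5 and Δ6 desaturases that make arachidonic and docosahexaenoic acid from dietary precursors, lie head to head on chromosome 29 of the bovine assembly ARS-UCD2.0, FADS1 at 40244036 to 40351218 on the minus strand and FADS2 at 40350542 to 40387559 on the plus strand, and FADS3 follows 5280 bases further at 40392840 to 40407813 on the minus strand. FADS2 was at 0.944 and 0.556 FPKM in LY_DMSO and 5.51 and 3.87 FPKM in cell2_LY, a 6.32-fold difference (log2 fold change 2.66 ± 0.40, adjusted p = 0.0711). FADS1 was at 37.0 and 21.8 FPKM in LY_DMSO and 63.2 and 109.9 FPKM in cell2_LY (log2 fold change 1.55 ± 0.36, adjusted p = 0.0782). FADS3 was the most abundant of the 3, at 90.9 and 45.0 FPKM in LY_DMSO and 175 and 128 FPKM in cell2_LY (log2 fold change 1.23 ± 0.36, adjusted p = 0.103). SCD was at 40.3 and 32.8 FPKM in LY_DMSO and 64.9 and 113 FPKM in cell2_LY (log2 fold change 1.23 ± 0.31, adjusted p = 0.0844). In all 4 genes both cell2_LY blastocysts lay above both LY_DMSO blastocysts, which a call on 2 blastocysts per group makes likely by itself. The spans of FADS1 and FADS2 share 677 bases, and without strand-specific counting reads from this stretch cannot be told apart. SCD5, the remaining desaturase, was at 1.56 and 0.590 FPKM in LY_DMSO and 2.40 and 0.101 FPKM in cell2_LY and was not called (-0.84).

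In the synthesis role FASN (chromosome 19, 50776231 to 50794939, plus strand) was at 7.07 and 3.68 FPKM in LY_DMSO and 25.4 and 11.6 FPKM in cell2_LY, a 3.37-fold difference (log2 fold change 1.75 ± 0.45, adjusted p = 0.0867). Both cell2_LY blastocysts lay above the vehicle range, with replicate 1 the higher by far. ACLY (0.57) and ACACA (0.51) were positive but not called. Of the triglyceride assembly genes, AGPAT2 was at 0.722 and 0.848 FPKM in LY_DMSO and 6.86 and 3.30 FPKM in cell2_LY (log2 fold change 2.54 ± 0.59, adjusted p = 0.0782), and AGPAT1, which catalyses the same acylation, was at 0.274 and 0.456 FPKM in LY_DMSO and 2.43 and 1.44 FPKM in cell2_LY (log2 fold change 2.34 ± 0.61, adjusted p = 0.0868). These values rested on 17 to 137 reads for AGPAT2 and 15 to 113 for AGPAT1, whose span overlaps EGFL8 on the other strand. DGAT1, the other enzyme besides DGAT2 that completes triglyceride, was at 1.92 and 1.93 FPKM in LY_DMSO and 5.27 and 3.32 FPKM in cell2_LY (log2 fold change 1.11 ± 0.43, adjusted p = 0.161), and its span overlaps HSF1 on the other strand. DGAT2 was at 1.40 and 0.976 FPKM in LY_DMSO and 1.15 and 0.651 FPKM in cell2_LY (log2 fold change -0.42 ± 0.59, adjusted p = 0.689), so only DGAT1 of the 2 final enzymes was called.

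PLIN2 (chromosome 8, 25117164 to 25131174, plus strand) was the only lipid gene called lower. It was at 97.2 and 175 FPKM in LY_DMSO and 38.4 and 27.95 FPKM in cell2_LY, 3.98-fold lower (log2 fold change -1.99 ± 0.33, adjusted p = 0.0711). The highest cell2_LY blastocyst lay far under the lowest vehicle blastocyst, and the call held in each of the 15 alternatives. The other 4 droplet protein genes were not called, at log2 fold changes of 0.22 for PLIN3, 0.81 for CIDEB, -0.56 for BSCL2 (seipin, which shapes budding droplets) and 0.31 for FITM2. MGLL, the lipase of the last step of lipolysis, was at 0.257 and 0.112 FPKM in LY_DMSO and 0.681 and 1.66 FPKM in cell2_LY, on 7 to 97 reads per library (log2 fold change 2.52 ± 0.96, adjusted p = 0.161). PNPLA2, the first lipase, was at 0.234 and 0.554 FPKM in LY_DMSO and 2.14 and 0.654 FPKM in cell2_LY without a call (log2 fold change 1.63 ± 0.94, adjusted p = 0.314).

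Elongation held 2 called genes, both at low levels. ELOVL2, which lengthens polyunsaturated chains, was at 0.229 and 0.229 FPKM in LY_DMSO and 2.09 and 0.732 FPKM in cell2_LY, from 4 to 31 reads per library (log2 fold change 2.17 ± 0.90, adjusted p = 0.181). HACD1 was at 0.607 and 2.59 FPKM in LY_DMSO and 4.94 and 4.17 FPKM in cell2_LY (log2 fold change 1.79 ± 0.70, adjusted p = 0.164). ELOVL6 was at 73.1 and 122 FPKM in LY_DMSO and 64.0 and 78.5 FPKM in cell2_LY (log2 fold change -0.42 ± 0.33, adjusted p = 0.462), and TECR, called higher in LY10 of the first table, was at 115 and 87.9 FPKM in LY_DMSO and 42.9 and 87.4 FPKM in cell2_LY (log2 fold change -0.71 ± 0.37, adjusted p = 0.270). CPT1A was at 2.97 and 2.15 FPKM in LY_DMSO and 2.34 and 2.55 FPKM in cell2_LY (log2 fold change -0.05 ± 0.37, adjusted p = 0.950), and CPT2 at 6.46 and 5.35 FPKM in LY_DMSO and 3.65 and 5.80 FPKM in cell2_LY (-0.35).

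**Figure D3:**
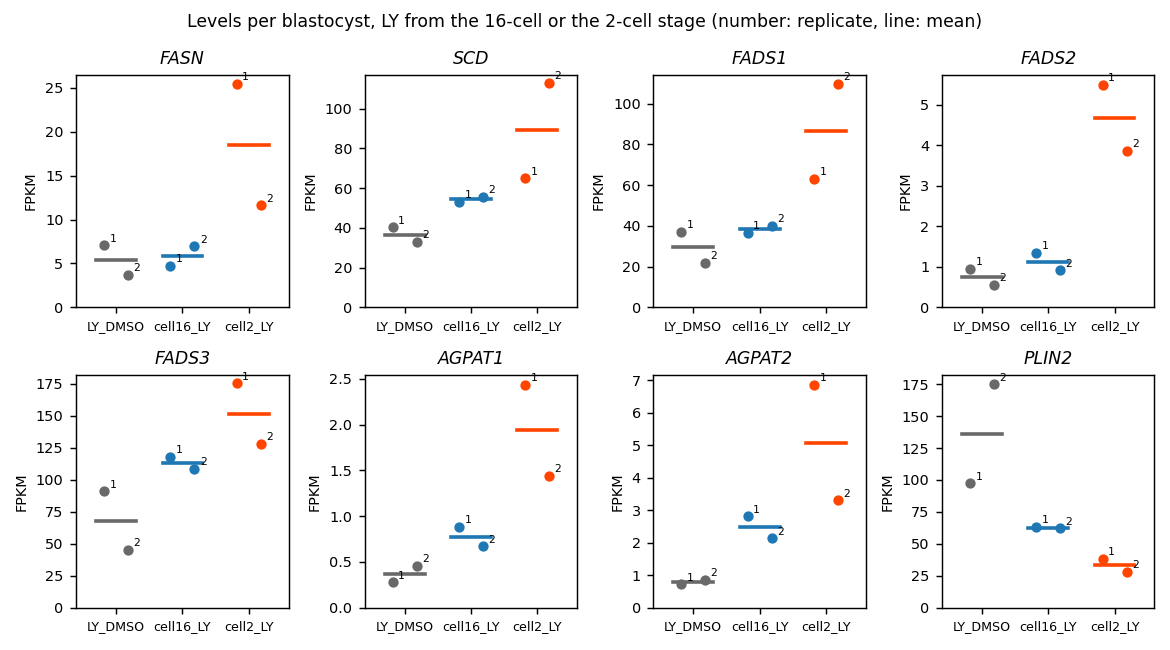
FPKM (y axis, linear from 0) of 8 lipid genes in the 2 blastocysts each of LY_DMSO, cell16_LY and cell2_LY; points are single blastocysts with their replicate number and lines are group means. In FASN, SCD, FADS1, FADS2, FADS3, AGPAT1 and AGPAT2 both cell2_LY blastocysts lie above all others, and in PLIN2 both lie below all others.

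AGPAT1, AGPAT2, FADS1, FADS2, FASN and PLIN2 were called in each of the 15 alternatives in which they were tested. The other 6 calls were lost in some. Quantile normalization and sample weights each ended those of DGAT1, ELOVL2 and MGLL, voom weights that of ELOVL2, and a fit of these 2 groups alone those of ELOVL2 and HACD1. Without LY_DMSO replicate 2, DGAT1 (1.12), ELOVL2 (2.17), FADS3 (0.72) and MGLL (1.98) were not called, and without LY_DMSO replicate 1, DGAT1 (1.11), ELOVL2 (2.17) and HACD1 (0.80) were not. Leaving out cell2_LY replicate 1 ended the calls of DGAT1 (0.78), ELOVL2 (1.45), FADS3 (1.00) and HACD1 (1.67), and leaving out cell2_LY replicate 2 those of HACD1 (1.91), MGLL (1.89) and SCD (0.83). Y-linked genes were read in both cell2_LY blastocysts and in LY_DMSO replicate 1 but not in LY_DMSO replicate 2, so the fit without LY_DMSO replicate 2 leaves Y-linked reads on both sides. The log2 fold changes there were 2.28 for FADS2, 1.28 for FASN, 1.17 for FADS1 and -1.57 for PLIN2. Of the 8 trophectoderm markers, CDX2 (0.410 and 0.591 FPKM in LY_DMSO, 3.87 and 3.49 in cell2_LY) and GATA2 (18.2 and 9.71 FPKM in LY_DMSO and 57.3 and 48.9 FPKM in cell2_LY) were called higher in cell2_LY, the trophectoderm sum was 4377 to 5348 FPKM in LY_DMSO and 5571 to 8144 FPKM in cell2_LY, and DPPA4 and PDGFRA were called lower. Of the 3 tested cumulus and granulosa markers STAR was called higher (1.23), while CYP11A1 (1.20) and FSHR (0.59) were not called. The sum of the 6 in that list was 8.67 to 19.8 FPKM in LY_DMSO and 17.5 to 39.3 FPKM in cell2_LY. In cell2_LY that sum was mostly CYP11A1, at 31.6 and 11.0 FPKM. The part of these markers in the lipid gene differences was not tested.

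The cell16_LY blastocysts were compared with the same vehicle blastocysts to ask what LY changes when it is added from the 16-cell stage. Of 40 tested lipid genes 5 were called, ELOVL2, HACD1, AGPAT2 and ABHD5 higher and PLIN2 lower in cell16_LY. This is 12.5% of them, beside 5.22% of all tested genes (3.25% higher and 1.97% lower). The median log2 fold change was 0.32, beside -0.01 over all tested genes, and 30 of the 40 were positive. By limma 0 lipid genes passed adjustment, as did 0% of all tested genes, with 8 lipid genes at an unadjusted p under 0.05, and voom weights gave 0 as well.

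PLIN2 was at 63.1 and 62.2 FPKM in cell16_LY, below both vehicle blastocysts (97.2 and 175 FPKM; log2 fold change -1.06 ± 0.33, adjusted p = 0.557). ABHD5, the activator of PNPLA2, was at 0.626 and 0.557 FPKM in LY_DMSO and 1.31 and 1.19 FPKM in cell16_LY (log2 fold change 1.08 ± 0.31, adjusted p = 0.551). AGPAT2 was at 2.81 and 2.14 FPKM (log2 fold change 1.59 ± 0.59, adjusted p = 0.620), between the vehicle and the cell2_LY blastocysts. ELOVL2 was at 0.229 and 0.229 FPKM in LY_DMSO and 2.01 and 1.87 FPKM in cell16_LY (log2 fold change 2.79 ± 0.90, adjusted p = 0.576), and HACD1 at 0.607 and 2.59 FPKM in LY_DMSO and 7.64 and 5.48 FPKM in cell16_LY (log2 fold change 2.30 ± 0.70, adjusted p = 0.552). In each of the 5 genes the groups did not overlap, which a call on 2 blastocysts per group makes likely by itself. The groups also did not overlap in several genes that were not called. Among those higher in cell16_LY was HACD3 (16.7 to 21.3 FPKM in LY_DMSO and 24.9 to 27.9 FPKM in cell16_LY). ELOVL1 (56.0 to 59.8 and 73.2 to 117 FPKM) and FADS3 (45.0 to 90.9 and 108 to 118 FPKM) were higher too. ACACA (1.06 to 1.22 and 0.659 to 0.896 FPKM) was lower. The share of all genes without overlap is not given, so lack of overlap does not set these genes apart. Of the 3 tested cumulus and granulosa markers CYP11A1 was called higher in cell16_LY (2.33), while STAR (0.35) and FSHR (-0.34) were not called. The sum of the 6 in that list was 8.67 to 19.8 FPKM in LY_DMSO and 22.6 to 89.4 FPKM in cell16_LY, highest in replicate 1. In cell16_LY that sum was mostly CYP11A1, at 84.5 and 19.7 FPKM. The part of these markers in the lipid gene results was not tested.

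FASN and SCD, called higher in cell2_LY, were not called here. FASN was at 4.74 and 6.95 FPKM in cell16_LY, inside the vehicle range of 7.07 and 3.68 FPKM (log2 fold change 0.17 ± 0.45, adjusted p = 0.957). SCD was at 53.0 and 55.5 FPKM, above both vehicle blastocysts (log2 fold change 0.57 ± 0.31, adjusted p = 0.714). All 5 desaturase genes were positive, from 0.42 for SCD5 to 0.82 for FADS3, but 0 of the 5 were called by limma. ELOVL6 was at 114 and 81.0 FPKM (log2 fold change 0.02 ± 0.33, adjusted p = 0.995), DGAT2 at 1.30 and 1.60 FPKM (log2 fold change 0.30 ± 0.59, adjusted p = 0.938) and CPT1A at 2.55 and 3.94 FPKM (log2 fold change 0.32 ± 0.37, adjusted p = 0.869), each overlapping the vehicle blastocysts. ACSL1 was at 12.3 and 6.82 FPKM against 4.17 and 6.10 FPKM in LY_DMSO (0.86) without a call.

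Leaving out cell16_LY replicate 1 left only PLIN2 called, with ABHD5 at 1.01, AGPAT2 at 1.40, ELOVL2 at 2.74 and HACD1 at 2.06 on the log2 scale. Leaving out LY_DMSO replicate 2 ended the calls of PLIN2 (-0.63) and ABHD5 (0.99), leaving out LY_DMSO replicate 1 those of AGPAT2 (1.48) and HACD1 (1.30), and leaving out cell16_LY replicate 2 those of AGPAT2 (1.79) and ELOVL2 (2.83). AGPAT2 was also not called with voom weights.

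The start stages were then compared directly, cell16_LY against cell2_LY. Of 40 tested lipid genes 5 were called, HACD3 higher and ACACA, FASN, FADS1 and FADS2 lower in cell16_LY, or 12.5% beside 11.3% of all tested genes (5.58% higher and 5.77% lower). By limma 0 passed adjustment, as did 0% of all tested genes, with 6 lipid genes at an unadjusted p under 0.05 and 0 after adjustment with voom weights. The median log2 fold change was 0.22, beside 0.04 over all tested genes. Under quantile normalization HACD3 was not called and the calls were 0 higher and 4 lower. With gene reads as library size, where the median of all genes moved to -0.18 and the higher share of all calls from 49.1% to 25.0%, they were 0 higher and 5 lower, with MGLL added.

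FADS2 was at 1.34 and 0.918 FPKM in cell16_LY and 5.51 and 3.87 FPKM in cell2_LY, 4.14-fold lower in cell16_LY (log2 fold change -2.05 ± 0.40, adjusted p = 0.186), and it was called in all 16 alternatives. FADS1 was at 36.5 and 39.9 FPKM in cell16_LY and 63.2 and 109.9 FPKM in cell2_LY (log2 fold change -1.13 ± 0.36, adjusted p = 0.198). FASN was at 4.74 and 6.95 FPKM in cell16_LY and 25.4 and 11.6 FPKM in cell2_LY (log2 fold change -1.58 ± 0.45, adjusted p = 0.193). ACACA, which supplies FASN with malonyl-CoA, was at 0.659 and 0.896 FPKM in cell16_LY, 1.87 and 1.41 FPKM in cell2_LY and 1.06 and 1.22 FPKM in LY_DMSO (log2 fold change -1.08 ± 0.33, adjusted p = 0.195). The vehicle blastocysts of ACACA lay between the LY groups, so its difference between start stages was made of a lower level in cell16_LY and a higher level in cell2_LY, neither of them called against vehicle. HACD3 was at 27.9 and 24.9 FPKM in cell16_LY and 11.7 and 13.9 FPKM in cell2_LY (log2 fold change 1.05 ± 0.27, adjusted p = 0.193).

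PLIN2, below vehicle in both LY groups, was lower still in cell2_LY (38.4 and 27.95 FPKM) than in cell16_LY (63.1 and 62.2 FPKM), with an unadjusted p under 0.05 but just under the fold threshold (log2 fold change 0.93 ± 0.33, adjusted p = 0.216). SCD was at 53.0 and 55.5 FPKM in cell16_LY and 64.9 and 113 FPKM in cell2_LY (log2 fold change -0.66 ± 0.31, adjusted p = 0.306). ELOVL6 (log2 fold change 0.44 ± 0.33, adjusted p = 0.497), DGAT2 (log2 fold change 0.72 ± 0.59, adjusted p = 0.530) and CPT1A (log2 fold change 0.37 ± 0.37, adjusted p = 0.606) were not called. Without cell16_LY replicate 1 the calls of ACACA (-0.85), FADS1 (-1.06) and HACD3 (0.97) were lost, without cell2_LY replicate 1 those of ACACA (-0.88), FASN (-1.02) and HACD3 (0.92), and without cell2_LY replicate 2 that of FADS1 (-0.73). In the last case, which leaves a single cell2_LY blastocyst, the log2 fold changes were -1.14 for DGAT1, -1.28 for LPIN2, -2.51 for PNPLA2 and 1.15 for TECR. The share of all genes called in that fit is not given, so its calls stand without a background. CDX2 and GATA2 were again the trophectoderm markers that moved, both called lower in cell16_LY than in cell2_LY (-1.84 and -1.94), and their part was not tested. Y-linked genes were read in cell16_LY replicate 2 and both cell2_LY blastocysts but not in cell16_LY replicate 1. The fit without that replicate thus has Y-linked reads in every blastocyst of these groups, and the part of this imbalance was not tested.

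Treatment with LY from the 2-cell stage was thus measured in both blastocyst tables, which share no library, and the lipid genes differed between them. Of the 38 genes tested in both, 18 had a log2 fold change of the same sign (47.4%), beside 6246 of the 13019 genes tested in both (48.0%). AGPAT2 (1.48 and 2.54) and FADS3 (1.30 and 1.23) were called higher in both. Over all genes 324 were called in both, 113 of them in the same direction and 211 in opposite directions. PLIN2 was at 0.11 in LY10 and -1.99 in cell2_LY, FADS1 at -0.06 and 1.55, TECR at 1.60 and -0.71, and CPT2 at 1.09 and -0.35. FASN (0.73 and 1.75) and SCD (0.81 and 1.23) were positive in both, called in cell2_LY alone. The tables were normalized separately, the concentration in cell2_LY is not given by the labels, and the differences between the experiments were not tested.

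**Figure D4:**
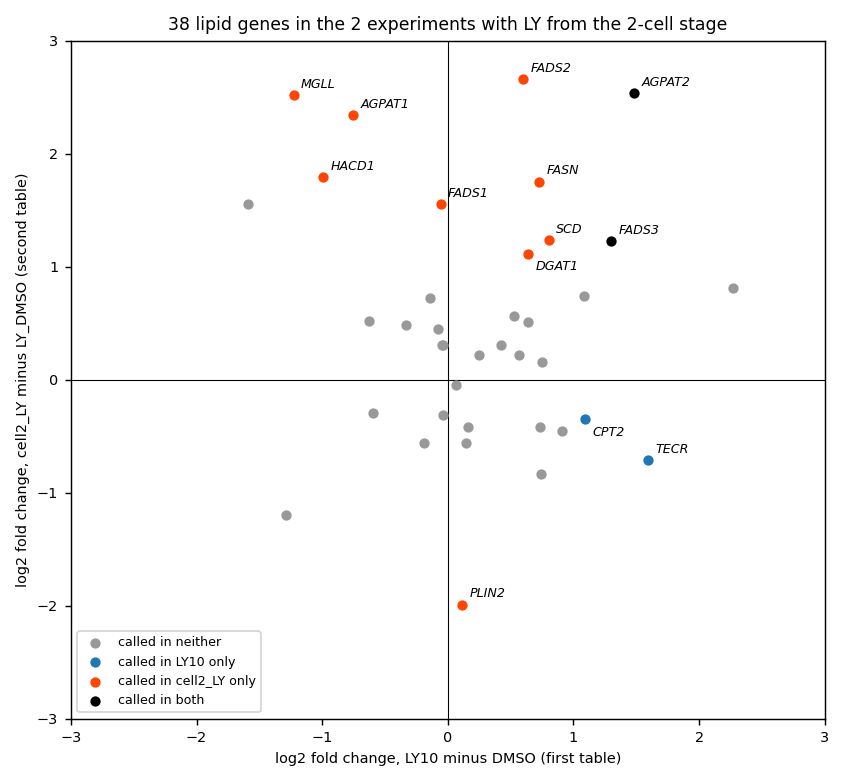
Log2 fold changes of the 38 lipid genes tested in both blastocyst tables, LY10 minus DMSO on the x axis and cell2_LY minus LY_DMSO on the y axis; each point is a gene, coloured by where it was called, and called genes are named. AGPAT2 and FADS3 lie in the upper right, PLIN2 far below 0 on the y axis alone, and TECR and CPT2 to the right of 0 but below it.

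Lipid pathway genes outside the 44 were taken from a list of 67 in 6 groups. In cell2_LY against LY_DMSO, 6 of the 14 tested regulators were called, all higher, beside 17% of all tested genes (8.71% higher): SREBF2, SREBF1, SCAP, INSIG1, MLXIPL and PPARD. SREBF1 and SREBF2 encode the sterol response factors that drive lipid synthesis genes, SCAP escorts them and INSIG1 retains them in the endoplasmic reticulum. SREBF2 had the smallest p of these (log2 fold change 1.68 ± 0.39, adjusted p = 0.0782), and SLC25A1, the mitochondrial citrate carrier, the smallest among all higher genes of the list (1.61 ± 0.27, adjusted p = 0.0711). ACSS2, which makes acetyl-CoA from acetate, followed (4.33 ± 1.00, adjusted p = 0.0782). Beside 8.34% of all tested genes called lower, 6 of the 16 fatty acid oxidation genes were called lower in cell2_LY, namely ETFA, ETFDH, SLC25A20, HADHB, ACADM and ECHS1, and 11 of the 16 had a negative log2 fold change. The smallest p among lower genes belonged to FABP3, a fatty acid binding protein (-1.77 ± 0.35, adjusted p = 0.0716), AGPAT5 (-1.75 ± 0.36, adjusted p = 0.0716) and IDH1 (-1.27 ± 0.30, adjusted p = 0.0782). In all 11 genes of the list were called higher and 11 lower, of 56 tested.

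In LY10 against DMSO 14 of the 16 oxidation genes had a positive log2 fold change, ECHS1, ETFDH and ACADS were called higher, and ACADL and CPT1C lower. Of the whole list 6 genes were called higher and 7 lower among 54 tested, beside 14.7% of all tested genes. PGD, an NADPH source of the pentose phosphate pathway, had the smallest p (2.03 ± 0.27, adjusted p = 0.0711), followed among higher genes by ECHS1 (1.33 ± 0.31, adjusted p = 0.0805) and ETFDH (1.501 ± 0.41, adjusted p = 0.0959). Lower were ACADL (-2.36 ± 0.50, adjusted p = 0.0783), PRKAA2 (-2.96 ± 0.75, adjusted p = 0.0865) and ME1 (-2.68 ± 0.73, adjusted p = 0.0959). Of the 5 list genes called in both experiments, 4 (ECHS1, ETFDH, ME1 and PPARD) had opposite signs, with ME1, the cytosolic malic enzyme, at -2.68 in LY10 and 3.57 in cell2_LY.

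In cell16_LY against LY_DMSO, 5 list genes were called higher and 2 lower of 56 tested, beside 5.22% of all tested genes. ME1 (4.98 ± 0.85, adjusted p = 0.222) and ACSS2 (3.53 ± 1.00, adjusted p = 0.541) were the supply genes among them, MOGAT1, ACADL and CIDEA the others, while LPL and AGPAT5 (-1.17) were lower. None of the 14 tested regulators was called by limma in that comparison. Between the start stages 7 were called higher and 6 lower in cell16_LY of 56 tested, beside 11.3% of all tested genes, with ETFDH (1.33 ± 0.31, adjusted p = 0.191), ACAA2 (1.21 ± 0.29, adjusted p = 0.191) and SLC25A20 (1.31 ± 0.36, adjusted p = 0.193) on the higher side, and SREBF2 (-1.94 ± 0.39, adjusted p = 0.191) and SLC25A1 (-1.01 ± 0.27, adjusted p = 0.193) on the lower. These comparisons share libraries with the one of cell2_LY and LY_DMSO, so they do not stand as separate evidence.

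In bESCs, bESC_LY was compared with bESC_tifx, both grown in TiFX medium. The paper's text calls the control DMSO, while its figure and the labels call it TIFX. Of 42 tested lipid genes 0 were called by limma and 0 had an unadjusted p under 0.05, and voom weights gave 0 for both. All tested genes gave 0.0749% called, 0.0375% higher and 0.0375% lower, and 0% after adjustment. Few calls were thus made anywhere in this fit, which did not pair libraries by number. With the replicate number as a block, 146 of all tested genes were called in place of 12, and 116 passed adjustment. Of the lipid genes, ACSL1 was then called and CPT1A passed adjustment. The values that follow are from the fit without the block. The median log2 fold change of the lipid genes was 0.04, beside -0.01. FASN was at 296 and 207 FPKM in bESC_tifx replicates 2 and 3 and at 253 and 202 FPKM in bESC_LY replicates 2 and 3 (log2 fold change -0.13 ± 0.24, adjusted p = 1.00). SCD was at 552 and 361 FPKM in bESC_tifx and 575 and 388 FPKM in bESC_LY (log2 fold change 0.08 ± 0.31, adjusted p = 1.00). In both genes the libraries numbered 2 lay above those numbered 3 in either group.

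The same order by number held for PLIN2, at 17.7 and 8.06 FPKM in bESC_tifx and 18.2 and 8.38 FPKM in bESC_LY (log2 fold change 0.05 ± 0.55, adjusted p = 1.00), for HSD17B12 (65.5 and 28.3 FPKM in bESC_tifx and 63.2 and 28.4 FPKM in bESC_LY) and for ACLY (269 and 130.2 FPKM in bESC_tifx and 233 and 129.5 FPKM in bESC_LY). CDX2 was at 0.368 and 13.7 FPKM in bESC_tifx and 0.243 and 15.2 FPKM in bESC_LY, so it was read in number only in the libraries numbered 3. The labels do not say what the numbers 2 and 3 stand for. ELOVL6 was at 53.2 and 50.6 FPKM in bESC_tifx and 50.2 and 49.8 FPKM in bESC_LY (log2 fold change -0.05 ± 0.12, adjusted p = 1.00). CPT1A was at 1.16 and 3.35 FPKM in bESC_tifx and 2.04 and 4.66 FPKM in bESC_LY (log2 fold change 0.64 ± 0.67, adjusted p = 1.00), and ACACA at 13.0 and 12.3 FPKM in bESC_tifx and 11.0 and 11.2 FPKM in bESC_LY, the smallest p among negative genes (log2 fold change -0.19 ± 0.13, adjusted p = 1.00). ACSL1 had the smallest p of all lipid genes (log2 fold change 1.76 ± 0.77, adjusted p = 1.00), at a level of 0.0203 and 0.0378 FPKM in bESC_tifx and 0.0835 and 0.145 FPKM in bESC_LY. ACSL5, with 0 reads in both bESC_LY libraries (which allows up to 0.0383 and 0.0346 FPKM), was not tested.

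Levels in bESCs and blastocysts stand side by side here without a test, because the tables were normalized separately, the libraries were made with different kits and the gene models differ in length. For 25 of the 43 genes the lengths lie within 1.33 times of each other, and only these are set side by side. FASN was at 202 to 296 FPKM in bESCs and 1.97 to 10.3 and 3.68 to 25.4 FPKM in the blastocysts of the first and second tables. SCD was at 361 to 575 FPKM in bESCs and 15.4 to 75.6 and 32.8 to 113 FPKM in blastocysts. ACACB, nearly unread in blastocysts (at most 0.0597 FPKM), was at 14.0 to 16.4 FPKM, and AGPAT1 at 30.2 to 33.4 FPKM against at most 2.43 FPKM. PNPLA2 was at 12.7 to 14.4 FPKM against at most 2.14 FPKM. SCD5, ELOVL4, ELOVL5, ELOVL7, BSCL2 and FITM2 were likewise higher in every bESC library than in any blastocyst. The share of all genes without overlap is not given. In bESCs 5 genes lay the other way without overlap. FADS3 at 3.98 to 6.92 FPKM, ACSL3 at 39.1 to 43.4 FPKM, PLIN2 at 8.06 to 18.2 FPKM and ACSL1 at 0.0203 to 0.145 FPKM all stayed below every blastocyst, as did ELOVL1 at 14.8 to 17.3 FPKM.

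**Figure D5:**
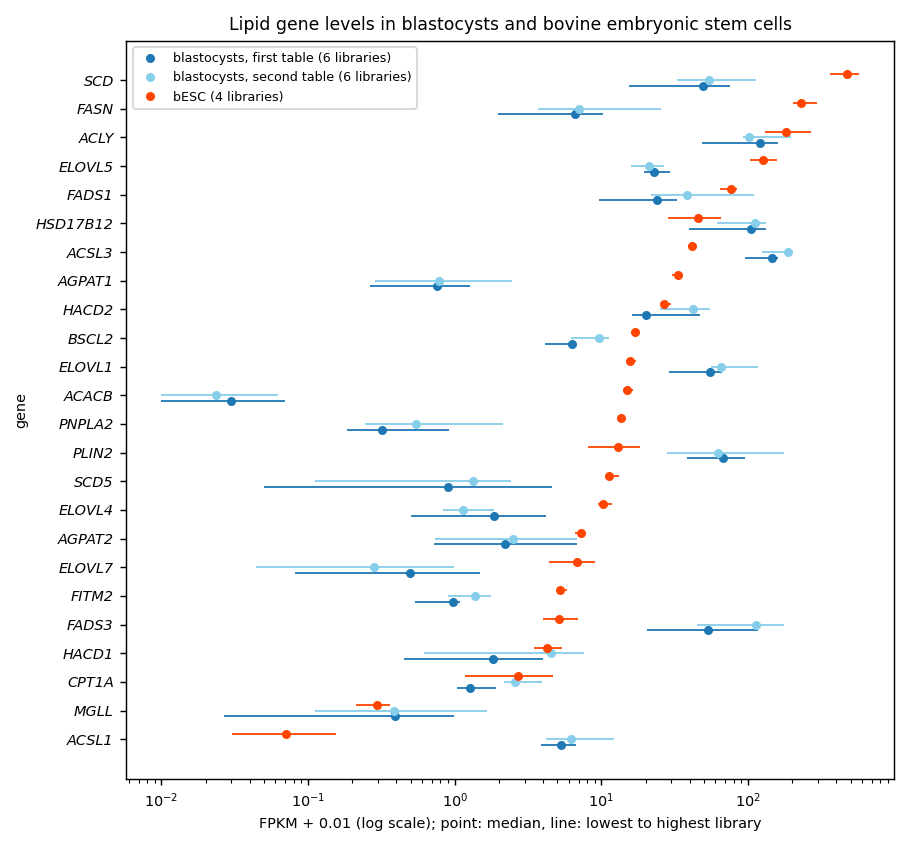
Levels of 24 lipid genes whose gene models have like lengths in all tables, as FPKM + 0.01 on a log axis; points are medians and lines run from the lowest to the highest library of the 6, 6 and 4 libraries, with ACSL5 (0 reads in both bESC_LY libraries) left out. SCD and FASN in bESCs lie to the right of all blastocysts, whereas FADS3, ACSL3, PLIN2, ELOVL1 and ACSL1 lie to the left.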

How the data were processed

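The 16 libraries came from 12 single blastocysts (SMART-seq) and 4 bESC samples. The authors describe trimming with fastp, alignment (both STAR and HISAT2 are named) and counting with featureCounts, and deposited FPKM. The submitters' processing notes list HISAT2 2.0.5, StringTie 1.3.3b, featureCounts 1.5.0-p3 and DESeq2 1.20.0. Gene positions equal those of RefSeq ARS-UCD2.0 for 98.84% of 36219 genes, but not for LPIN1. Columns with the authors' own fold changes and p-values were left unused.

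FPKM times gene length gave whole reads for 100% of values (tolerance 0.02 reads). These were scaled by the library size they imply to a common size per table, called normalized counts. Genes averaging 10 or more were tested on log2(normalized count + 1) with limma 3.58.1 in R 4.3.3 (lmFit, then eBayes with a trend), on a scale that understates the change of low genes. LY_DMSO, cell16_LY and cell2_LY entered a single fit. No count model served as the test, since FPKM were deposited, but voom was run on the recovered reads. The methods call the replicates biological, but no source says what separates the bESC libraries, whose p-values measure the spread between these libraries only. The fit was tested on simulated data. A gene at 0 reads is limited to 3 reads, for counting error only.

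The 44 genes, the 67 further pathway genes and the marker lists were chosen with earlier results of these data known. Values per library are given for every called gene, for the gene of smallest p in each direction, and always for FASN, SCD, ELOVL6, PLIN2, DGAT2 and CPT1A. Other genes given per library (HSD17B12 and ACLY in the first and bESC tables, FADS1 in the first, and ACSL1, CPT2, PNPLA2, SCD5 and TECR in the second) were added after their values were seen. Further pathway genes are named when called, or as the 3 of smallest p per direction where more than 6 were, except that 1 such gene is not reported here. The alternatives changed the pseudocount (0.5 or 5), the filter (none, or 50), the scaling (TMM, quantiles or reads on genes), the weights (voom or sample), added the replicate number as a block, fitted 2 groups alone or left out 1 library.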

Additional observations from a re-analysis of the deposited data

Results flagged for a closer look

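In a test of the difference between the LY start stages, 5 lipid genes of the second blastocyst table were called, 12.5% of those tested beside 11.3% of all tested genes. The contrast of cell16_LY with cell2_LY is the difference of their effects against the shared LY_DMSO blastocysts, and its log2 fold changes were -2.05 for FADS2, -1.58 for FASN, -1.13 for FADS1, -1.08 for ACACA and 1.05 for HACD3. Adjusted p values by limma were 0.186 to 0.198, so none passed adjustment over all tested genes. FADS2 alone of the 5 was called in all 16 alternatives. HACD3 was not called under quantile normalization or with gene reads as library size.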

How the results depend on the processing

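The 12 lipid genes called in cell2_LY against LY_DMSO ranged from 8 to 10 when single libraries were left out. The count in LY10 against DMSO was 7 with sample weights, where 2822 of all 14249 tested genes were called. It was 3 to 9 with single libraries left out, 9 without DMSO replicate 3. In cell16_LY against LY_DMSO it was 3 at a mean of at least 50, where 32 genes were tested, and 1 to 6 with libraries left out, 1 without cell16_LY replicate 1. Between the start stages it was 3 to 8, 3 without cell16_LY replicate 1 and 8 without cell2_LY replicate 2. In bESCs it was 0 to 1, with CPT1A called (1.40) without bESC_tifx replicate 3. The share of all genes called with a library left out, or with the filter at 50, is not given. Those counts thus stand without a background. The causes were not tested. The median log2 fold change of the lipid genes kept its sign in the 3 comparisons with vehicle, ranging from 0.15 to 0.46 in LY10, 0.16 to 0.57 in cell16_LY and 0.39 to 0.70 in cell2_LY, and ran from -0.04 to 0.29 between the start stages and from -0.07 to 0.10 in bESCs. Of the 77 alternative counts 69 stayed within 1.5 times of the count reported, 57 of 77 alternative medians moved by less than the spread between replicates and 20 by more, and in no alternative did a called gene change sign. Same-numbered libraries deviated together with correlations of -0.12, 0.17 and -0.10 in the first table, -0.23 to 0.12 in the second and 0.79 in the bESC table, which has only 2 pairs. The labels do not say what the numbers stand for, so the main fits did not pair them. In bESCs this left the difference between numbers 2 and 3 in the error. With the replicate block 4, 5, 11, 5 and 1 lipid genes were called (LY10, cell16_LY and cell2_LY against vehicle, cell16_LY against cell2_LY, and bESCs). Over all tested genes the block gave 2060, 790, 2489, 1632 and 146 calls in the same order, beside 2097, 758, 2476, 1649 and 12 without it. In LY10 the block ended the call of AGPAT2 and added LPIN1, and in cell2_LY it ended that of ELOVL2. The bESC gene was ACSL1, 5 bESC lipid genes had an unadjusted p under 0.05, CPT1A (0.64) passed adjustment, and over all genes the block moved the bESC calls from 12 to 146, and 116 genes passed adjustment. With the numbers of cell16_LY exchanged, added after seeing the data, both of its comparisons gave 5. Depth limits AGPAT1, AGPAT2, ELOVL2, HACD1 and MGLL, whose values rest on few reads.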
